A study of Danio rerio with 6 samples.

Results

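The first 25 Mb of zebrafish chromosome 4 were examined in 3 peak lists made by chromatin immunoprecipitation and sequencing (ChIP-seq). A peak belonged to this stretch when its midpoint lay below 25000000 on chromosome 4 of the Zv9 assembly. The stretch held 2237 of the 59760 H3K27ac peaks of a primary melanoma, 1041 of the 50338 H3K27ac peaks of the melanoma cell line zcrest, and 2 of the 4202 sox10 peaks of zcrest, 3280 of 114300 peaks in all. The tumor list therefore had 3.74% of its peaks here and the zcrest list 2.07%.

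H3K27ac, acetylation of histone H3 at lysine 27, marks active promoters and enhancers. The transcription factor sox10 acts in the neural crest and in the pigment cells that arise from it. Zebrafish chromosome 4 is known for its long arm, which is heterochromatic, replicates late and is rich in repeats, whereas the other arm resembles the rest of the genome.

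The tumor was 1 freshly dissected bulk melanoma from a p53/BRAF/Na fish injected with MiniCoopR;mitf:EGFP as a control plasmid, so it can hold cells other than melanoma cells. Zcrest is 1 melanoma line, grown for more than 20 passages, whose founder fish was p53/BRAF/Na with crestin:EGFP and MiniCoopR alone. Both sources thus share the p53/BRAF/Na background and MiniCoopR, a vector that carries an mitfa minigene, and they differ in the reporter, in the founder fish and in culture. The series has 6 libraries, 3 ChIP libraries and the 3 input libraries labelled for them, with 1 library per group. The inputs were not analysed here.

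With 1 library per group there is no replicate error, so values are described with no test, and intervals (exact, 95%) cover counting error only. Read depth is unknown from peak lists, and the number of peaks that a caller returns depends on it. Ratios between the lists were therefore read against the ratio of the whole lists, 1.19 tumor peaks per zcrest peak. The melanocyte identity of the samples could not be checked against marker genes, since no gene annotation on Zv9 was used here, and regions are given by position only.

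The primary melanoma had 2.15 H3K27ac peaks per zcrest peak in the first 25 Mb of chromosome 4 (interval 2.00 to 2.32), against 1.17 in the rest of the lists (1.15 to 1.18). The ratio here was 1.81 times that of the whole lists. In covered sequence the tumor peaks filled 680 kb and the zcrest peaks 370 kb. Their ratio was 1.84, against 0.89 in the rest of the lists. The mean width was 304 bases for tumor peaks and 356 bases for zcrest peaks here, against 301 and 394 bases in the rest.

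Other chromosomes were cut from their starts into 41 full stretches of 25 Mb on 24 chromosomes. Tumor peaks per stretch numbered 2237 on chromosome 4, against 687 to 1618 in those 41, with a median of 1106. Zcrest peaks numbered 1041, against 541 to 1585, with a median of 967, and 13 of the 41 stretches held more. The ratio of tumor to zcrest peaks was 2.15 against 0.88 to 1.44. The position of chromosome 4 outside that range thus came with the highest tumor count and a zcrest count inside the range. Among the 24 first stretches alone, the tumor count and the ratio of chromosome 4 were also the highest. When the other chromosomes were scanned in steps of 1 Mb, none of 706 stretches reached the ratio of chromosome 4. The highest there was 1.83, on chromosome 11 from 21 to 46 Mb, with 1161 tumor and 634 zcrest peaks. The stretch on chromosome 4 was chosen with earlier results of these data known. Its place among the stretches is thus a description and no independent test.

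**Figure D1:**
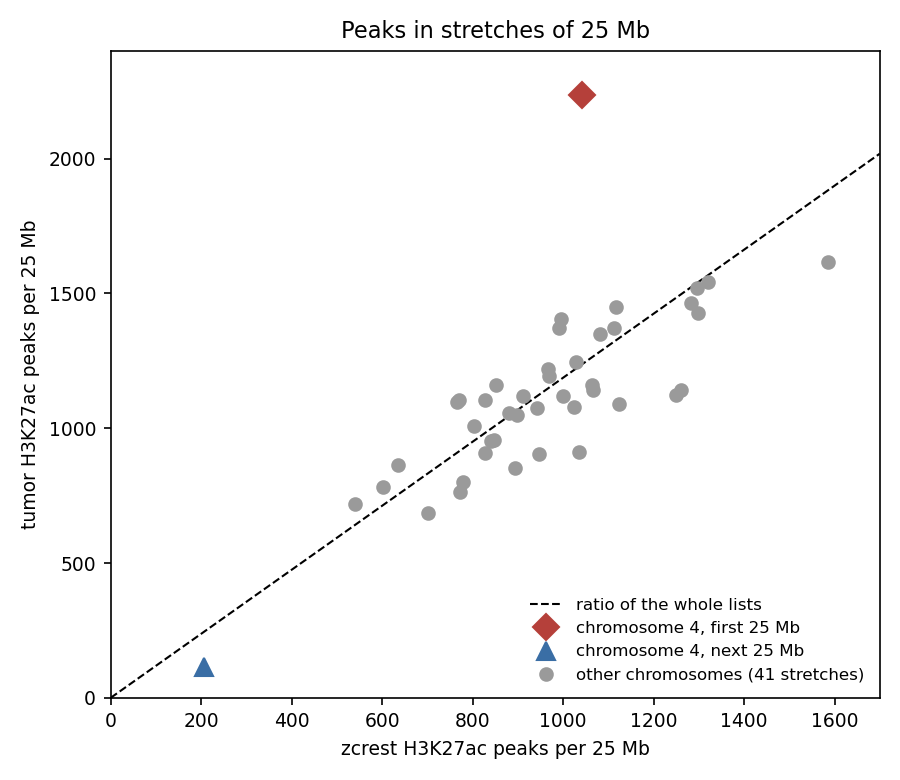
Tumor H3K27ac peaks (y axis) against zcrest H3K27ac peaks (x axis) in stretches of 25 Mb: the first 25 Mb of chromosome 4, the next 25 Mb of chromosome 4 and 41 stretches of the other chromosomes, with the ratio of the whole lists as a dashed line. The first 25 Mb of chromosome 4 held 2237 tumor and 1041 zcrest peaks, above all 41 other stretches on the y axis and inside their range on the x axis, while the next 25 Mb held 116 and 207.

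The surplus of tumor peaks was spread along the whole stretch. Every one of the 25 windows of 1 Mb had more tumor than zcrest peaks, with ratios from 1.17 to 4.65 and a median of 2.12. In 24 of the 25 the ratio, with 0.5 added to each count, exceeded that of the whole lists, against 50.5% of the 1332 windows of the genome that held at least 10 peaks. A window was counted as having a tumor surplus when this ratio was at least 1.5 times that of the whole lists. That was so in 19 of the 25 windows (76.0%), against 14.7% of the same 1332. The opposite, a tumor deficit of the same size, was found in 0 of the 25 windows, against 18.0% in the genome. In steps of 5 Mb the ratio was 2.18, 2.05, 2.27, 2.07 and 2.20 from the chromosome start onward, and the intervals of these 5 values all overlapped (1.73 to 2.69 in all).

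The 5 windows with the largest surplus were scattered over the stretch. Surplus is given here as tumor peaks beyond those expected from the zcrest count and the ratio of the whole lists. The window from 2 to 3 Mb came first, with 228 tumor and 103 zcrest peaks and a surplus of 106 peaks. It held the most tumor and the most zcrest peaks of the 25. The window from 22 to 23 Mb had 121 tumor and 26 zcrest peaks, a surplus of 90.1 and the highest ratio of the 25. The third was the window from 15 to 16 Mb with 127 tumor and 46 zcrest peaks (surplus 72.4). The fourth, from 10 to 11 Mb, had 134 and 53 (71.1), and the fifth, from 7 to 8 Mb, had 133 and 65 (55.8). Together these 5 windows held 39.5% of the total surplus of 1001 peaks, and the first alone held 10.6%, so the remaining 20 windows held most of it.

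The 3 windows with the smallest surplus lay apart from each other as well. The window from 24 to 25 Mb had 61 tumor and 52 zcrest peaks, a ratio of 1.17 and a surplus of -0.73, the only value below 0 among the 25. The windows from 9 to 10 Mb (58 and 32 peaks) and from 17 to 18 Mb (102 and 69 peaks) followed with 20.0 and 20.1 peaks. The ratio of 1.48 from 17 to 18 Mb was the second lowest. The sparsest 3 neighbouring windows ran from 18 to 21 Mb, with 141 tumor and 41 zcrest peaks, a ratio of 3.44.

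Windows with many tumor peaks were also those with many zcrest peaks. Across the 25 windows Pearson's r between the counts was 0.85 and Spearman's rho 0.73, and r was 0.65 without the 2 windows whose zcrest counts lay farthest from the median. This describes 25 neighbouring windows of the same 2 libraries, which share sequence composition and mappability, and it is no test over samples.

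**Figure D2:**
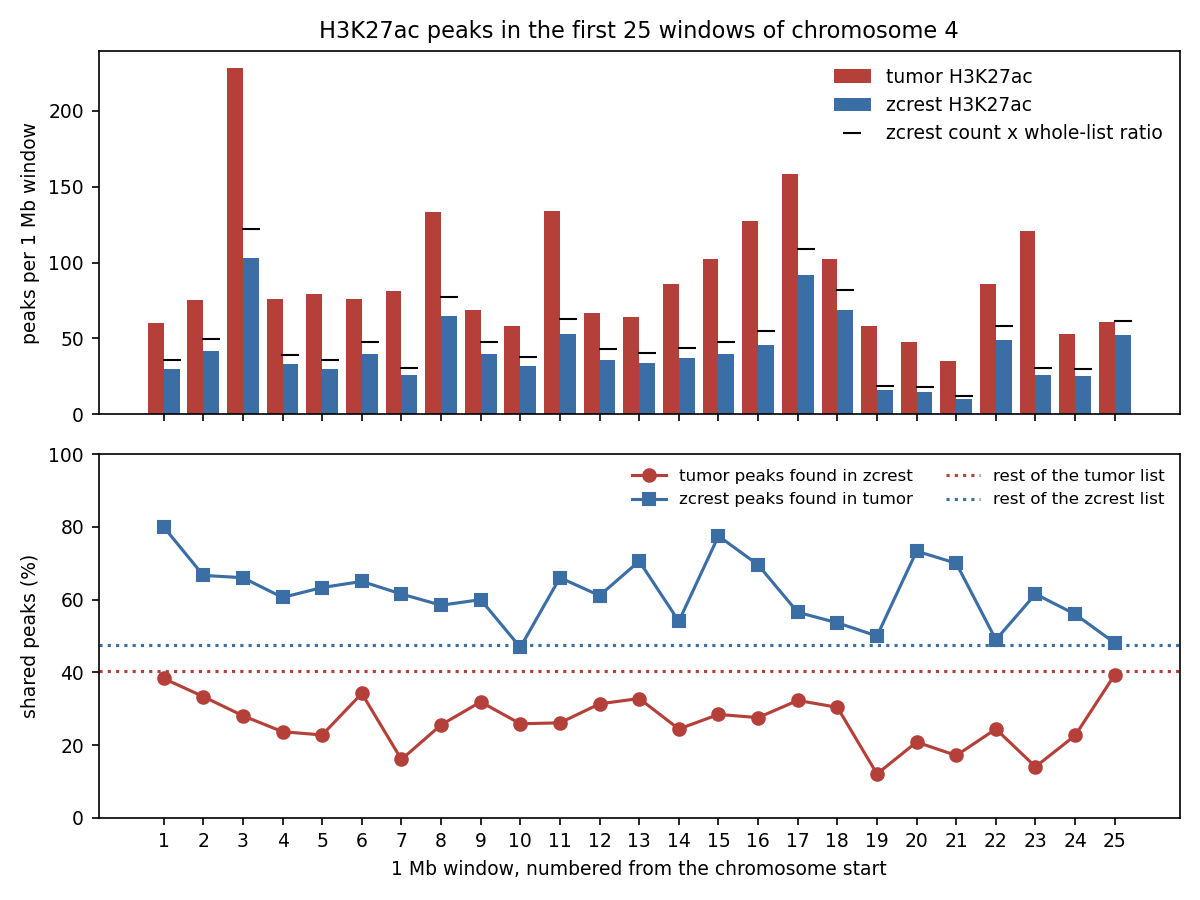
Upper panel, tumor and zcrest H3K27ac peaks in each of 25 windows of 1 Mb, with a dash at the zcrest count multiplied by the ratio of the whole lists. Lower panel, the share of peaks in each window that overlapped a peak of the other list, with dotted lines at the shares in the rest of each list. Tumor bars exceed the dash in 24 of 25 windows, and the tumor share lies below its dotted line in all 25.

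Neighbouring windows with a surplus occurred elsewhere too. On chromosome 4 the longest row was 7 windows, from 9 to 16 Mb, with 638 tumor and 278 zcrest peaks. Chromosome 22 had a longer row of 10 windows, from 32 to 42 Mb, with 538 and 226 peaks. Of the 20 windows with the largest surplus in the genome, 7 lay in the first 25 Mb of chromosome 4. That stretch held 25 of the 1332 windows with at least 10 peaks. This surplus is a number of peaks, so windows rich in peaks can rank high. On chromosome 11, 17 of 46 windows (37.0%) had a surplus, and on chromosome 10 the number was 0 of 47.

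Few tumor peaks of this stretch were found in zcrest, whereas most zcrest peaks were found in the tumor. Of the 2237 tumor peaks, 599 (26.8%, interval 24.95% to 28.7%) overlapped a zcrest peak by at least 1 base, against 39.8% over the whole tumor list. Of the 1041 zcrest peaks, 636 (61.1%, 58.1% to 64.1%) overlapped a tumor peak, against 47.9% over the whole zcrest list. The tumor share was lower than in all 41 stretches of the other chromosomes (33.9% to 49.0%), and the zcrest share was higher than in all of them (39.9% to 56.0%). Among the 706 stretches taken in steps of 1 Mb, values on chromosome 11 came closer. The lowest tumor share there was 29.0% and the highest zcrest share 57.7%. The zcrest share exceeded the tumor share in each of the 25 windows. Shared peaks were nearly equal in number from both sides (599 and 636), so this order follows from the larger tumor count in each window. The shares are thus not independent of the ratio of the counts.

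Of the classes behind these shares, only unshared tumor peaks lay outside the range of the other 41 stretches. Tumor peaks without a zcrest partner numbered 1638, against 392 to 910 elsewhere. Shared tumor peaks numbered 599, inside the range of 271 to 708, and 4 of the 41 stretches held more. Zcrest peaks without a tumor partner numbered 405, inside the range of 251 to 856, and 33 of the 41 held more. Some peaks met several partners: 78 tumor peaks overlapped more than 1 zcrest peak, and 41 zcrest peaks overlapped more than 1 tumor peak.

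**Figure D3:**
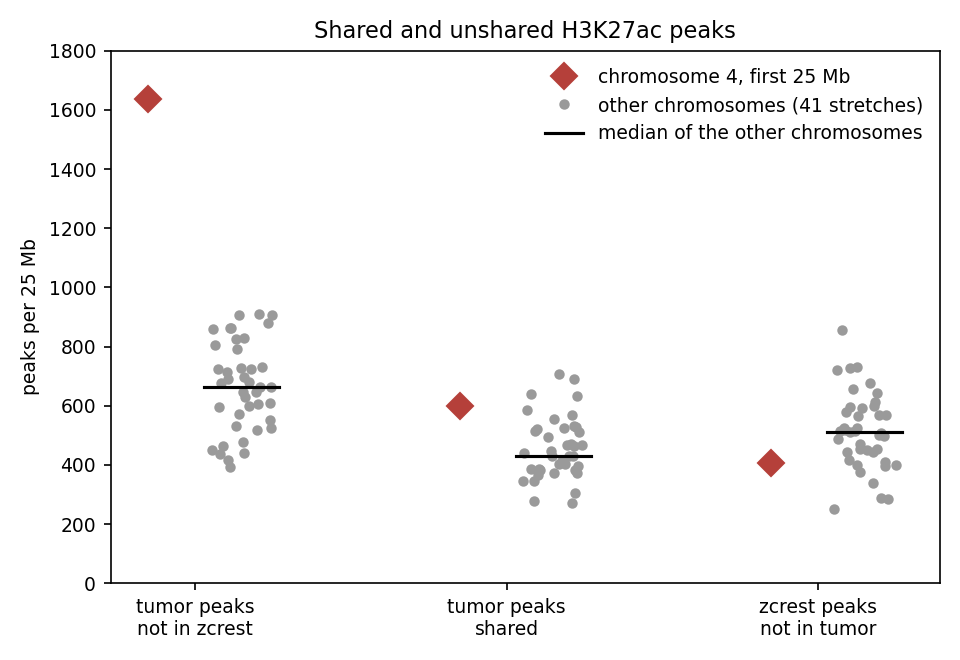
Peaks per 25 Mb (y axis) in 3 classes, with the first 25 Mb of chromosome 4 as a diamond, 41 stretches of the other chromosomes as points and their median as a line. The 1638 tumor peaks without a zcrest partner lie above all 41 points, while the 599 shared tumor peaks and the 405 zcrest peaks without a tumor partner lie within them.

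Within the stretch, the tumor share ranged from 12.1% in the window from 18 to 19 Mb to 39.3% in the window from 24 to 25 Mb. It was also low from 22 to 23 Mb (14.0%) and from 6 to 7 Mb (16.0%). The zcrest share ranged from 46.9% in the window from 9 to 10 Mb to 80.0% in the first window, from 0 to 1 Mb. In every window the tumor share was below the 40.3% of the rest of the tumor list, and in 24 of 25 windows the zcrest share was above the 47.6% of the rest of the zcrest list.

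The low tumor share was present at every level of peak strength. Strength is the authors' fold enrichment, the ratio of signal at a peak over the caller's own background, and peaks were sorted into deciles of their whole list. In the highest decile 145 of 227 tumor peaks (63.9%, 57.3% to 70.1%) were found in zcrest, against 82.7% in the rest of the list. In the lowest decile the share was 24 of 239 (10.0%, 6.54% to 14.6%), against 15.8%. All 10 intervals of the tumor list lay below the share in the rest. In the zcrest list the gap was widest in the second lowest decile. There 47 of 68 peaks (69.1%, 56.7% to 79.8%) were found in the tumor, against 40.3% in the rest. In the lowest decile of that list the share was 32 of 44 (72.7%, 57.2% to 85.0%), against 46.2%. In its highest decile the share was 76.2% (66.7% to 84.1%) against 68.9%, inside the interval. The share in the rest also lay inside the interval in deciles 6, 8 and 9, counted from the lowest.

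**Figure D4:**
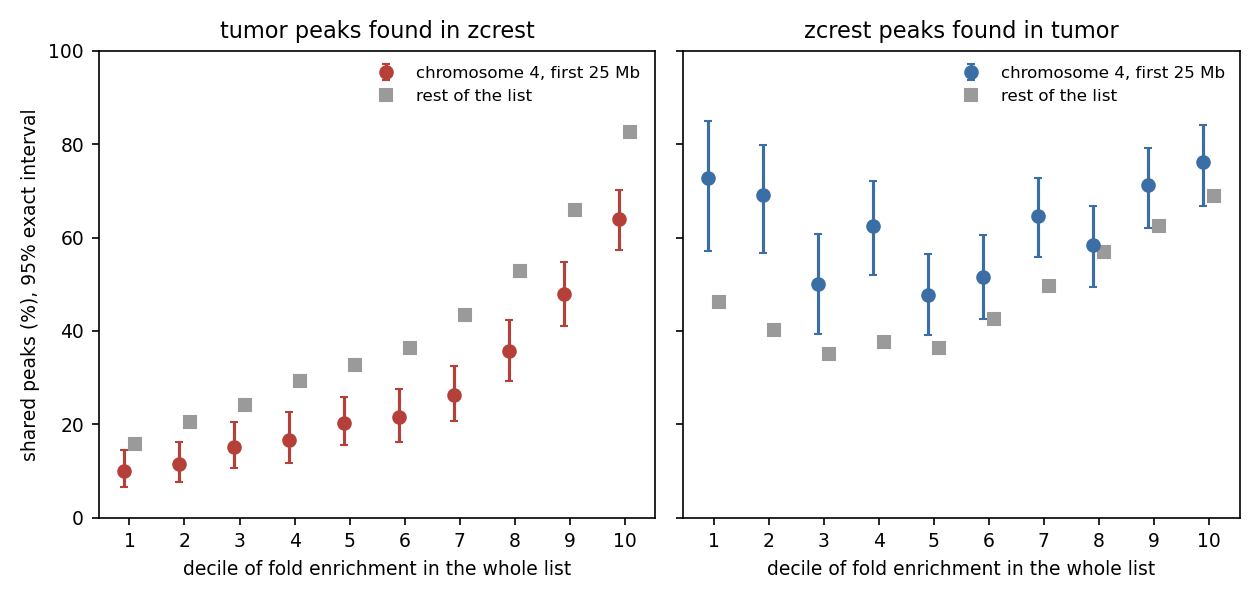
Share of peaks that overlapped a peak of the other list (y axis, percent) by decile of fold enrichment in the whole list (x axis), for the first 25 Mb of chromosome 4 with exact 95% intervals and for the rest of each list. The 10 tumor intervals lie below the rest of the list, from 10.0% against 15.8% in the lowest decile to 63.9% against 82.7% in the highest.

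In strength and width the tumor peaks of the stretch lay close to the rest of their list. They had a median fold enrichment of 5.52 (5.39 to 5.59) and a median width of 241 bases (235 to 248), against 5.56 and 239 bases in the rest of the list. Each decile of fold enrichment held between 8.58% and 11.2% of the tumor peaks of the stretch, so strong and weak peaks were present in nearly the same proportions as in the whole list. The 227 peaks of the highest decile compare with 67 to 171 in the other 41 stretches. Peaks of 500 bases or wider made up 12.3% of tumor peaks, against 11.5% in the rest.

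Tumor peaks without a zcrest partner were narrower and weaker than shared ones, both here and elsewhere. The 1638 unshared tumor peaks were 217 bases wide at the median with a fold of 5.08, against 208 bases and 4.91 in the rest of the list. The 599 shared tumor peaks were 355 bases wide with a fold of 7.31, against 310 bases and 6.94.

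Zcrest peaks of the stretch were narrower than the rest of their list and had a higher median fold enrichment. Their median width of 269 bases (254 to 283) was below that of the rest of the list, 296 bases, and below all 41 other stretches (271 to 318 bases). Their median fold of 5.82 (5.50 to 5.87) was above that of the rest, 5.31, and above all 41 stretches (4.60 to 5.80). The caller's significance went the other way, with a median −log10 q-value of 9.59 against 10.3 in the rest. The lowest decile of fold enrichment held 4.23% of the zcrest peaks here and the highest 9.70%. Decile 5, counted from the lowest, held the largest share, 12.9%. Peaks of 500 bases or wider were 18.6% of zcrest peaks, against 24.4% in the rest. Shared zcrest peaks had a median width of 331 bases against 405 in the rest, and unshared ones 214 against 232 bases.

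By the median gap, tumor peaks stood closer together here than in the rest of their list, and zcrest peaks slightly farther apart. Zcrest peaks were not fewer here, with 1041 against a median of 967 in the other 41 stretches. The median gap between neighbouring tumor peaks was 2.57 kb, against 4.59 kb in the rest of the list, and between zcrest peaks it was 2.25 kb, against 2.05 kb. From an unshared tumor peak the nearest zcrest peak lay 6.32 kb away (median), against 6.90 kb in the rest. From an unshared zcrest peak the nearest tumor peak lay 0.53 kb away, against 1.41 kb, and 62.0% of these zcrest peaks had one within 1 kb, against 45.1%. Such distances depend on how dense the other list is, and the tumor list was densest here. The longest gap without a tumor peak ran from 3327051 to 3648322 (321 kb) and held 0 zcrest peaks. The longest without a zcrest peak began at nearly the same place, from 3326784 to 3852712 (526 kb), and held 5 tumor peaks.

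Some of the tumor peaks without a zcrest partner stood in long rows. A run is a row of consecutive unshared tumor peaks with no zcrest peak between them. The 1638 unshared tumor peaks formed 426 runs with a mean of 3.85 peaks, against 2.57 in the rest of the list. The median run had 2 peaks, and 155 of the 426 were single peaks. Of the 426 runs, 39 had at least 10 peaks, against 2.79% of the 13799 runs of the whole list. These 39 were 10.1% of the 385 such runs of the genome, spanned 4.66 Mb and held 522 peaks, 31.9% of the unshared tumor peaks here. In the rest of the list 13.6% of unshared tumor peaks stood in such runs. Per stretch this share was 0% to 28.6% in the other 41 stretches, highest in the first 25 Mb of chromosome 24. The other 41 stretches had 0 to 16 such runs each. Run lengths depend on how dense both lists are, and the tumor list was densest here.

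**Figure D5:**
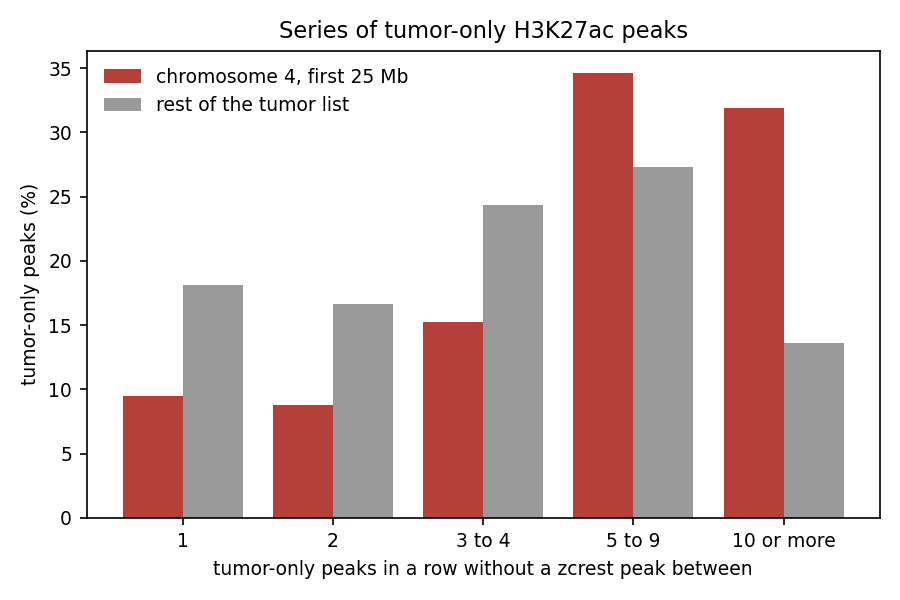
Share of unshared tumor peaks (y axis, percent) by the length of the run they stood in (x axis, peaks in a row with no zcrest peak between), for the first 25 Mb of chromosome 4 and for the rest of the tumor list. Runs of 10 or more peaks held 31.9% against 13.6%, and single peaks 9.46% against 18.1%.

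The 5 longest runs lay in 5 different windows. The longest, from 22505483 to 22754200, had 29 tumor peaks in 249 kb with a median fold of 5.54. It lay in the window with the highest ratio. The next, from 13074237 to 13169029, packed 28 peaks into 94.8 kb with a median fold of 5.63. The others were from 15436768 to 15610324 (23 peaks), from 6752257 to 6875954 (19 peaks) and from 2620764 to 2691135 (18 peaks, the last ahead of an equally long run by position only). In the whole tumor list the longest of them ranked 8, and the longest run elsewhere had 36 peaks.

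Runs of zcrest peaks without tumor peaks were short. The 405 unshared zcrest peaks formed 293 runs, of which 222 were single peaks and 0 reached 10 peaks, against 0.665% of all zcrest runs. With a share that low, 0 of 293 is close to the whole list. The longest run had 7 peaks, against 6 to 40 in the other 41 stretches, with a median of 15. Tumor peaks break such runs, and the tumor list was densest here. The 3 longest were from 7942336 to 7974300 (7 peaks in 32.0 kb), from 24791979 to 24796928 (6 peaks in 4.95 kb) and from 24799005 to 24801881 (6 peaks in 2.88 kb). The last pair lay close together in the final window, the one without a tumor surplus. There the first 0.5 Mb had 18 tumor and 8 zcrest peaks, and the second 0.5 Mb had 43 and 44.

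Peaks no more than 12.5 kb apart were stitched into domains. Domains were ranked in their list by the product of width and fold enrichment, summed over their peaks. The stretch held 429 of the 18985 tumor domains (2.26%) and 348 of the 16353 zcrest domains (2.13%). Tumor domains averaged 5.21 peaks, against 3.10 in the rest, and zcrest domains 2.99, against 3.08. Peaks per domain also depend on how dense a list is. Of the 1000 highest tumor domains 48 (4.8%) lay here, 11 of them among the first 100. Of the 1000 highest zcrest domains 20 (2%) lay here, with 2 among the first 100, close to the share of all zcrest domains. Ranks sum over peaks, so they depend on density too.

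The highest tumor domain ran from 16068558 to 16319904, with 125 tumor peaks over 251 kb and rank 2 in its list. It covered 75 zcrest peaks in 6 zcrest domains, among them the highest zcrest domain of the stretch, from 16246977 to 16301579 (44 zcrest peaks, rank 30), and the fifth, from 16117231 to 16137349 (9 peaks, rank 257). Of its 125 tumor peaks 38 were shared. The fullest 100 kb of the stretch, from 16100001 to 16200000, lay inside it with 58 tumor and 22 zcrest peaks.

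The second tumor domain, from 10560917 to 10790956 (87 peaks, rank 10), covered 35 zcrest peaks and held the third zcrest domain, from 10732572 to 10761367 (14 peaks, rank 161). The other 3 tumor domains had weaker zcrest counterparts. From 7289939 to 7447913 there were 55 tumor peaks (rank 18) over 17 zcrest peaks, whose best domain ranked 3076. From 3845380 to 3952318 there were 48 tumor peaks (rank 24) over 19 zcrest peaks (best rank 910), and from 15522552 to 15697045 there were 52 (rank 31) over 12 (best rank 493). The last of these overlapped the third longest run of unshared tumor peaks.

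The remaining zcrest domains among the highest 5 were the second, from 17730023 to 17762144, and the fourth, from 21098782 to 21165872. The second had 24 zcrest peaks filling 47.0% of 32.1 kb (rank 32) over 13 tumor peaks of a domain that ranked 335. The fourth had 16 zcrest peaks (rank 221) over 20 tumor peaks (rank 524). Ranks come from lists of different lengths and give a place within a list, not a difference in acetylation.

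The 3 strongest single peaks of each list in the stretch were shared. In the highest decile of tumor peaks, 82.7% were shared in the rest of the list, while 82 of the 227 here were not. The tumor peak with the highest fold, from 24883669 to 24883980, had a fold of 36.2 and ranked 2 in its list. The next, from 21415865 to 21416131 (fold 33.9), ranked 3, and the third, from 7417936 to 7418591 (27.8), ranked 23. Each of these 3 overlapped 1 or 2 zcrest peaks. The strongest zcrest peaks were from 8586827 to 8587226 (fold 21.3, rank 104), from 41739 to 42358 (19.4, rank 211) and from 9668712 to 9668991 (18.1, rank 340), and each overlapped 1 tumor peak.

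The widest peaks were shared too. They were tumor peaks from 21406121 to 21408342 (2222 bases), from 7547624 to 7549444 (1821 bases) and from 3852077 to 3853767 (1691 bases), and zcrest peaks from 17747814 to 17750136 (2323 bases), from 16117624 to 16119798 (2175 bases) and from 17732882 to 17734815 (1934 bases). The widest of these zcrest peaks and the one of 1934 bases lay in the domain from 17730023 and covered tumor peaks of 350 and 155 bases in all.

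The 3 strongest peaks without a partner in each list were added after their values were seen. In the tumor list they were from 2921604 to 2921876 (fold 20.3, rank 343), from 7432794 to 7433162 (20.0, rank 364) and from 16125106 to 16125443 (17.7, rank 710). In the zcrest list they were from 21128174 to 21128543 (16.4, rank 654), from 22958189 to 22958640 (15.1, rank 1043) and from 16121630 to 16121871 (14.9, rank 1118). The last named of each list lay near each other inside the highest tumor domain.

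Few sox10 peaks were called in zcrest along the stretch. The 2 found (interval 0.24 to 7.22) compare with 3 to 412 per stretch on the other chromosomes, with a median of 24. The interval treats peaks as independent, but sox10 peaks can cluster, as with the 68 from 26 to 27 Mb of chromosome 4. Stretches with 3 peaks, inside the interval, lay on chromosome 17 (0 to 25 Mb) and chromosome 20 (25 to 50 Mb). The first of the 2 peaks here lay from 2133991 to 2134083 with a fold of 5.67, and the second from 7450345 to 7450403 with a fold of 5.83. They ranked 1435 and 1325 of 4202 in fold enrichment. They were 5316 kb apart, so no cluster of sox10 peaks occurred here. Neither overlapped H3K27ac, 0 of 2 on the tumor list and 0 of 2 on the zcrest list, against 0.428% and 6.59% of all sox10 peaks. The nearest tumor and zcrest H3K27ac peaks lay 7.37 and 7.82 kb from the first, and 2.43 and 2.32 kb from the second. With 2 peaks an overlap share cannot be estimated.

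Both H3K27ac lists thinned out at the limit of 25 Mb. The last tumor peak inside, from 24999535 to 24999933, had a fold of 17.9, and the first outside, from 25037240 to 25037695, had 6.39. For zcrest the last inside, from 24999659 to 25000108, had a fold of 4.33 and the first outside, from 25122185 to 25122889, had 5.01. The window from 24 to 25 Mb held 61 tumor and 52 zcrest peaks, and that from 25 to 26 Mb held 8 and 13.

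Beyond 25 Mb the balance of the lists was the other way round. Tumor peaks numbered 263 and zcrest peaks 332, a ratio of 0.79 (0.67 to 0.93), and 98 sox10 peaks lay there, 68 of them between 26 and 27 Mb. Tumor peaks there were found in zcrest in 33.5% of cases and zcrest peaks in the tumor in 27.1%, against 26.8% and 61.1% in the first 25 Mb. From 60 Mb to the end the ratio was again high, with 65 tumor and 26 zcrest peaks (2.50, interval 1.56 to 4.11).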

How the data were processed

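The submitters' processing notes name Bowtie, the Zv9 assembly and MACS2 2.0 for alignment and peak calling. Which Bowtie version, control and thresholds were used is not given in the sources used. Each list comes from 1 library, per the labels. For each peak the deposited files hold a position, the fold enrichment as a ratio to background, and the −log10 of its p-value and q-value. The deposited score was 10 times the −log10 q, truncated, in all peaks. The highest q in the 3 lists was 0.0497.

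Peaks overlapped when they shared at least 1 base. Windows and stretches were filled by peak midpoints, and a chromosome was taken to end at its last peak. Positions are 1-based. Intervals are exact (Clopper-Pearson for shares and peak ratios, Poisson for the sox10 count, binomial order statistics for medians). The covered-base ratio is the exception. Its interval, used only to compare alternatives, is that of the peak ratio rescaled, and it leaves out variation in peak width. Fold enrichments were used only within their list. The procedures were tested on simulated data. Python 3.11.15, numpy 2.4.6, pandas 2.3.3, scipy 1.17.1 and matplotlib 3.10.9 were used. Named regions are the 5 windows of largest and 3 of smallest surplus, the 5 longest tumor and 3 longest zcrest runs, the 5 highest domains, and the 3 strongest and 3 widest peaks of each list. The stretch and these rules were chosen with earlier results of these data known. Alternatives covered stricter q-values, equal list lengths, other overlap rules, merged peaks, other windows and leaving out a window.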

Additional observations from a re-analysis of the deposited data

How the results depend on the processing

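No paired analysis was possible because each group holds 1 library. Of 76 alternatives to 13 values, 54 kept the value within 1.5 times (counts) or inside its 95% interval (ratios, shares and medians), 22 moved it further, and in none did a ratio, share or median pass to the other side of the whole-list value. The rank among stretches was added after seeing the data, and the ratio of chromosome 4 ranked 1 under all 6 of its alternatives. Its excess over the whole-list ratio ran from 1.71 to 1.99 times. Because the stretch was chosen with earlier results of these data known, this rank is no independent support.

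With the tumor list shortened to the zcrest list length, the ratio was 1.81 in peaks (whole lists 1) and 1.63 in bases (0.81). The tumor share was 29.8% (whole list 44.3%), the long runs 19 of 394 (192 of 12153) and the tumor width 258 bases (254). With peaks closer than 500 bases merged, the ratio was 2.64 (whole lists 1.55) and the zcrest share 72.8% (whole list 58.1%). The long runs were 21 of 375 (222 of 12559). Widths were 278 bases for tumor peaks (whole list 266) and 396 bases for zcrest peaks (whole list 496). Surplus was then found in 13 of 25 windows of 1 Mb (11.6% of all such windows), in place of 19, a change within 1.5 times. Overlap of at least 50% of the smaller peak gave a tumor share of 23.2% (whole list 34.7%) and a zcrest share of 50.7% (40.0%). Overlap within 500 bases gave a tumor share of 34.5% (whole list 47.6%) and a zcrest share of 79.9% (65.3%). At a −log10 q of 5 or more, tumor width was 259 bases (whole list 256) and zcrest width 304.5 (342). At 10 or more, tumor width was 325.5 bases (whole list 324) and zcrest width 395 (448). There were then 16 long runs of 231 (111 of 6936) and 0 sox10 peaks (whole list 1759). Surplus was found in 10 of 12 windows of 2 Mb (10.7% of all such windows). These 12 left out the part from 24 to 25 Mb, which had no surplus as a window of 1 Mb. At a threshold of 2 times, surplus was found in 9 of 25 windows (5.03% of all windows). The whole-list values moved under these settings too, and the cause of the shifts was not tested. Read depth is unknown, so the peak ratio of the 2 libraries has no depth correction.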
